A study of Mus musculus with 8 samples.

Results

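The genes described here encode the mitochondrial calcium uniporter and proteins that act on it or beside it: Mcu, Smdt1, Micu2, Micu3, Mcur1 and Letm1. They are 6 of the 14578 genes measured in the mouse left ventricle, and they were chosen by gene symbol, not by a measured value. All 6 passed the filter on low values (a normalized abundance of at least 1 in at least 2 libraries), as 13783 genes did. Total RNA was sequenced in 8 libraries from mice aged 6 months, all in a C57 genetic background. The mdx sln+/- group (n = 3) lacks dystrophin through the mdx mutation of Dmd and carries a single working copy of Sln, which encodes sarcolipin, an inhibitor of the calcium pump of the sarcoplasmic reticulum. The mdx group (n = 3) has the same Dmd mutation with both Sln copies, and the WT group (n = 2) has neither change. The study set the 3 genotypes side by side to look for molecular pathways tied to disease of the heart. The labels do not say whether the libraries of a group came from separate animals, nor the sex of the mice, and the p-values therefore speak only of the spread among libraries, which may be technical.

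The uniporter is a calcium channel of the inner mitochondrial membrane, driven by the membrane potential. MCU forms the pore, and EMRE, the product of Smdt1, is a small membrane protein without which the pore does not open in animal cells and which ties it to the gatekeepers. MICU2 and MICU3 are calcium-binding gatekeepers in the space between the membranes. Gatekeepers keep the channel shut at resting calcium and let it open when calcium rises. MCUR1 is an inner membrane protein required for full uniporter activity, and LETM1 is an inner membrane protein of cation and proton exchange. In heart muscle, calcium that enters by this route activates matrix dehydrogenases and so links energy supply to workload, while too much of it opens the permeability transition pore and can kill the cell. Muscle without dystrophin is known for raised cytosolic calcium.

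The stretches of coding sequence that define these roles are shown first, 5′ to 3′, read from GENCODE M21 transcripts (GRCm38/mm10). In Mcu the capitals mark the codons of the DIME motif (residues 260 to 263 of 350), which lines the mouth of the pore. In Micu2 and Micu3 they mark the codons at positions 1, 3, 5 and 12 of each match to a calcium-binding EF-hand loop pattern, the positions whose side chains hold the ion. In Smdt1 they mark the 7 acidic residues that close the protein (residues 98 to 107 of 107 are shown), the tail through which EMRE meets the gatekeepers.
Mcu, residues 257 to 266: tactcgtggGACATCATGGAGcccgtcacc
Micu2, residues 182 to 193: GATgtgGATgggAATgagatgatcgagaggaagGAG
Micu2, residues 372 to 383: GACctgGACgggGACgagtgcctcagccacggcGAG
Micu3, residues 238 to 249: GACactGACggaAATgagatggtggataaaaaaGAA
Micu3, residues 476 to 487: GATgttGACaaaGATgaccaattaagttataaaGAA
Smdt1, residues 98 to 107: tttgtcccaGAGGATGACGACGACGACGAT
Both loops were found in the coding transcripts with the most exons, Micu2-201 (432 residues) and Micu3-201 (523 residues). The bases printed for the acidic tail of Smdt1 lay in the annotated sequence of all 3 Smdt1 transcripts measured. Of these only Smdt1-201 is annotated as protein coding. Whether the bases are read in the same frame in the others was not checked.

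A few facts of the libraries bear on every value. Dmd, the mutated gene, had a normalized abundance of 15.996, 16.2 and 17.96 in mdx sln+/- 1, 2 and 3, of 18.7, 19.0 and 17.7 in mdx 1, 2 and 3, and of 96.3 and 125.1 in WT 1 and 2. The Sln level was not analysed here. All 11 ventricular cardiomyocyte markers were present, with summed abundances of 63895 to 67770 in mdx sln+/-, 61447 to 67589 in mdx and 61803 to 62801 in WT. Of 8 skeletal muscle markers, 1 was in the files used here. Linear totals ran between 780262 and 924253, and because the values are not counts the depth behind them is unknown. The Y-linked gene Eif2s3y was low, on the log2 scale, in mdx sln+/- 3 (1.31) and WT 2 (0.92), and lay between 3.29 and 6.11 in the other 6 libraries, so these 2 libraries stood apart, and calls that are lost without them are named. Before deposit, the values had been adjusted so that mdx sln+/- 2 and mdx 2 together average the same as the 4 remaining dystrophin-deficient libraries in each transcript, and this contrast is a term of the model here.

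Between mdx and WT, the gene for the essential subunit EMRE, Smdt1, rose, and none of the other 5 uniporter genes passed the test in either direction. In limma with Benjamini-Hochberg adjustment over all tested genes at a threshold of 0.05, that is 1 of 6 members called, where 15.1% of all tested genes were called, 8.15% higher and 6.94% lower. Between mdx sln+/- and WT, Smdt1 and the gatekeeper gene Micu2 rose and no member fell, so 2 of 6 were called, beside 15.9% of all tested genes, 9.41% higher and 6.5% lower. Both comparisons use the same WT libraries. Log2 fold changes are on the log2(abundance + 1) scale, which understates changes of low genes, and the error after ± is limma's standard error unless SD is named. For scale, the median absolute log2 fold change of all tested genes was 0.18 in mdx against WT and 0.19 in mdx sln+/- against WT.

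**Figure D1:**
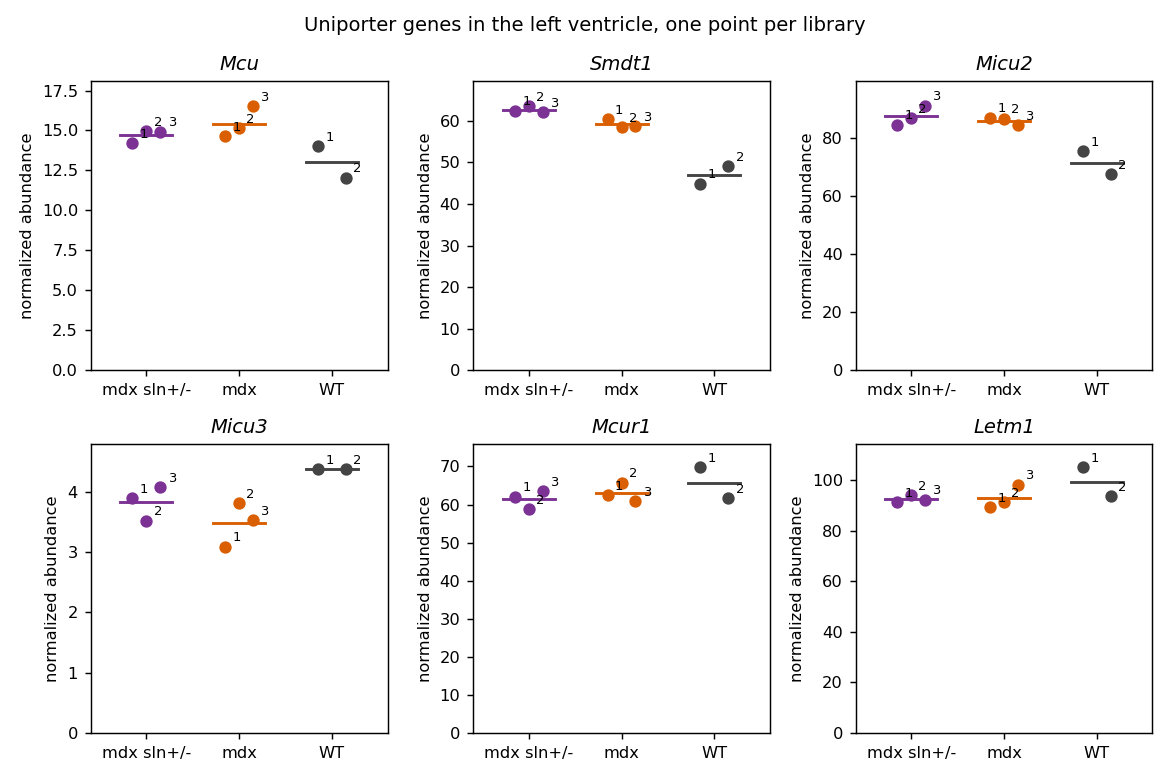
Normalized abundance (linear axis from 0) of each uniporter gene in each library, with groups mdx sln+/-, mdx and WT from left to right, 1 numbered point per library and a bar at the group mean. The Smdt1 points of both mdx groups, from 58.4 upward, all lie above WT (44.9 and 49.0), while the groups of Mcur1 and Letm1 overlap.

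Smdt1 (ENSMUSG00000022452, chromosome 15 from 82338959 to 82349091, plus strand, GRCm38/mm10) encodes EMRE. Its abundance was 62.5, 63.5 and 62.1 in mdx sln+/- 1, 2 and 3, and 60.4, 58.4 and 58.8 in mdx 1, 2 and 3, against 44.9 and 49.0 in WT 1 and 2. Every library of both mdx groups was above both WT libraries, and every mdx sln+/- library was above every mdx library. The group means were 62.7 ± 0.714 in mdx sln+/- and 59.2 ± 1.07 in mdx (SD, n = 3 each), against 47.0 ± 2.92 in WT (SD, n = 2). Smdt1 rose by 0.33 ± 0.07 in mdx against WT, a 1.26-fold level (95% interval of the log2 change 0.17 to 0.49, limma, adjusted p = 0.0227). It rose by 0.41 ± 0.07 in mdx sln+/- against WT, a 1.33-fold level (95% interval 0.25 to 0.57, limma, adjusted p = 0.0116). Changes of this size were common: 27.3% of tested genes had a larger absolute change in mdx against WT and 20.0% in mdx sln+/- against WT.

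The Smdt1 call in mdx against WT was lost when any of 5 libraries was left out: the adjusted p was 0.0686 without WT 1, 0.0630 without mdx 1, 0.0515 without mdx 3, 0.0669 without mdx sln+/- 1 and 0.0502 without mdx sln+/- 3. In mdx sln+/- against WT the call was lost without mdx sln+/- 1 (adjusted p = 0.0749) and without mdx sln+/- 3 (adjusted p = 0.0578). Without WT 2 and mdx sln+/- 3, the change of Smdt1 was 0.39 ± 0.09 in mdx against WT (limma, adjusted p = 0.105) and 0.48 ± 0.10 in mdx sln+/- against WT (limma, adjusted p = 0.114). Smdt1 overlaps Pheta2 and n-R5s41 on its own strand, neither of which was analysed here, and reads of overlapping genes could not be told apart.

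Micu2 (ENSMUSG00000021973, chromosome 14 from 57916261 to 57999262, minus strand) encodes the gatekeeper whose EF-hand loops are printed above. Its abundance was 84.5, 86.7 and 91.0 in mdx sln+/- 1, 2 and 3, and 86.9, 86.5 and 84.4 in mdx 1, 2 and 3, against 75.4 and 67.5 in WT 1 and 2. Both mdx groups lay wholly above WT and overlapped each other. The means were 87.4 ± 3.29 in mdx sln+/- and 85.9 ± 1.35 in mdx (SD, n = 3 each), against 71.5 ± 5.56 in WT (SD, n = 2). Micu2 rose by 0.29 ± 0.08 in mdx sln+/- against WT, a 1.22-fold level (95% interval 0.11 to 0.47, limma, adjusted p = 0.0436). In mdx against WT its change was 0.26 ± 0.08 (95% interval 0.09 to 0.44, limma, adjusted p = 0.0566), which missed the threshold. That Micu2 was called in 1 comparison and not in the other does not show a difference between the mdx groups, whose direct comparison gave 0.02 ± 0.06 (95% interval -0.13 to 0.18, limma, adjusted p = 0.934).

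The Micu2 call in mdx sln+/- against WT was weak. It held in 6 of 20 alternatives, over which the adjusted p ran between 0.0123 and 0.423. It was lost when any single library other than WT 1 was left out, with adjusted p between 0.0506 without mdx 1 and 0.173 without mdx sln+/- 3, and 0.170 without WT 2. It was also lost with the replicate number as a block (0.28 ± 0.08, limma, adjusted p = 0.0525). The fits without mdx 2 and without mdx sln+/- 2 give the same estimate and are not separate checks.

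Micu3 (ENSMUSG00000039478, chromosome 8 from 40307458 to 40386308, plus strand) encodes the gatekeeper best known from brain, where it enhances uptake. It had the lowest values of the 6 genes, near the filter: 3.89, 3.52 and 4.07 in mdx sln+/- 1, 2 and 3, and 3.09, 3.81 and 3.53 in mdx 1, 2 and 3, against 4.37 and 4.37 in WT 1 and 2. Both mdx groups lay wholly below WT. The means were 3.82 ± 0.281 in mdx sln+/- and 3.47 ± 0.362 in mdx (SD, n = 3 each), against 4.37 ± 0.00402 in WT (SD, n = 2). Neither difference passed the test: it was -0.27 ± 0.12 in mdx against WT (95% interval -0.54 to 0.00, limma, adjusted p = 0.155) and -0.16 ± 0.12 in mdx sln+/- against WT (95% interval -0.43 to 0.11, limma, adjusted p = 0.364). A stretch of 204 bases of Micu3 is identical to Fgf20, which lies on the other strand at the same place. Whether reads were counted by strand is not given in the sources used here, so the level of Micu3 is uncertain and may hold reads of Fgf20. How large that part could be was not tested.

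Mcu (ENSMUSG00000009647, chromosome 10 from 59446984 to 59616692, minus strand), the pore gene, had an abundance of 14.2, 14.9 and 14.9 in mdx sln+/- 1, 2 and 3, and of 14.6, 15.2 and 16.5 in mdx 1, 2 and 3, against 14.001 and 12.04 in WT 1 and 2. The lowest mdx sln+/- library stood just above WT 1, so neither mdx group overlapped WT. The means were 14.7 ± 0.421 in mdx sln+/- and 15.4 ± 0.983 in mdx (SD, n = 3 each), against 13.0 ± 1.39 in WT (SD, n = 2). Mcu was not called: the change was 0.23 ± 0.10 in mdx against WT (95% interval -0.00 to 0.46, limma, adjusted p = 0.155) and 0.17 ± 0.10 in mdx sln+/- against WT (95% interval -0.07 to 0.40, limma, adjusted p = 0.278). These intervals still hold rises about as large as those of Smdt1, so the data do not show that Mcu stayed level. Mcu overlaps the protein-coding Gm10322 on the opposite strand. Because counting by strand is not known, the level of Mcu and the ratios to it may hold reads of that gene.

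Mcur1 (ENSMUSG00000021371, chromosome 13 from 43538393 to 43560191, minus strand), the uniporter regulator, had 62.1, 58.8 and 63.4 in mdx sln+/- 1, 2 and 3, and 62.4, 65.8 and 60.9 in mdx 1, 2 and 3, against 69.8 and 61.7 in WT 1 and 2. Letm1 (ENSMUSG00000005299, chromosome 5 from 33739673 to 33782817, minus strand), the exchanger gene, had 91.3, 94.0 and 92.2 in mdx sln+/- 1, 2 and 3, and 89.2, 91.3 and 98.2 in mdx 1, 2 and 3, against 105.1 and 93.5 in WT 1 and 2. The groups of both genes overlapped, and the highest library of each was WT 1. In mdx against WT the change was -0.06 ± 0.08 for Mcur1 (95% interval -0.25 to 0.14, limma, adjusted p = 0.666) and -0.09 ± 0.08 for Letm1 (95% interval -0.28 to 0.09, limma, adjusted p = 0.459). In mdx sln+/- against WT it was -0.09 ± 0.08 for Mcur1 (limma, adjusted p = 0.456) and -0.10 ± 0.08 for Letm1 (limma, adjusted p = 0.420). Letm1 spans 2 processed pseudogenes on the opposite strand.

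**Figure D2:**
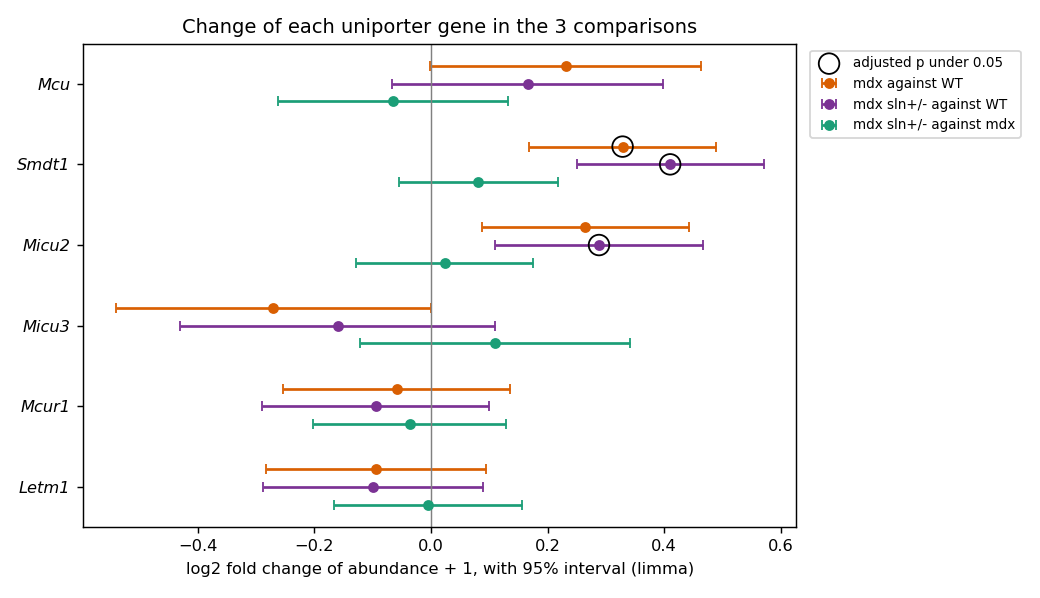
Log2 fold change of abundance + 1 for each uniporter gene (points, with bars for the 95% interval, limma) in mdx against WT, mdx sln+/- against WT and mdx sln+/- against mdx. Rings mark an adjusted p under 0.05: Smdt1 at 0.33 and 0.41, and Micu2 at 0.29 in mdx sln+/- against WT.

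By overlap alone, 4 of the 6 genes (Mcu, Smdt1, Micu2 and Micu3) had groups that did not overlap in each comparison with WT. With 2 WT libraries this is a weak criterion: groups did not overlap for 51.4% of all tested genes in mdx against WT and for 59.8% in mdx sln+/- against WT.

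Loss of a Sln copy on the mdx background was accompanied by no called change of a uniporter gene. Between mdx sln+/- and mdx, 0 of 6 members and 0% of all 13783 tested genes were called by limma, 0% higher and 0% lower, with a smallest adjusted p of 0.477, and 1186 genes had an unadjusted p under 0.05. Smdt1 was higher in mdx sln+/- in every library (62.1 to 63.5, against 58.4 to 60.4 in mdx), with a change of 0.08 ± 0.06 (95% interval -0.06 to 0.22, limma, adjusted p = 0.707). It was the only member whose groups did not overlap, as those of 24.8% of all tested genes did not. The other estimates were -0.07 ± 0.08 for Mcu (95% interval -0.26 to 0.13), 0.11 ± 0.10 for Micu3 (95% interval -0.12 to 0.34), -0.04 ± 0.07 for Mcur1 and -0.01 ± 0.07 for Letm1. Adjusted p-values for these 4 genes (limma) ran between 0.767 and 0.987, and their intervals allow changes as large, in one direction or the other, as those seen against WT. For Smdt1 and Micu2 the intervals ended at 0.22 and 0.18, below their changes against WT.

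The balance of each gene against the pore gene was taken as its abundance divided by that of Mcu in the same library, in which library scaling cancels and, between libraries, so does transcript length. The ratio of Letm1 to Mcu was 6.43, 6.29 and 6.17 in mdx sln+/- 1, 2 and 3, and 6.10, 6.02 and 5.94 in mdx 1, 2 and 3, against 7.51 and 7.77 in WT 1 and 2. Every WT library had more Letm1 per Mcu than any library of either mdx group, and every mdx sln+/- library had more than any mdx library. Such separation was common: the ratio to Mcu did not overlap between groups for 56% of the other 13782 tested genes in mdx against WT, 54.1% in mdx sln+/- against WT and 29.3% in mdx sln+/- against mdx. Letm1 itself overlapped between each mdx group and WT, whereas Mcu did not. The log2 ratio differed by -0.34 in mdx against WT (exact permutation test, two-sided, p = 0.2) and by -0.28 in mdx sln+/- against WT (exact permutation test, p = 0.2). With 3 libraries against 2, 0.2 is the smallest p this test can give, and with 3 against 3 it is 0.1, so no ratio could pass 0.05.

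Mcur1 and Micu3 were likewise lower per Mcu in the dystrophin-deficient libraries. The Mcur1 to Mcu ratio was 4.18 ± 0.226 in mdx sln+/- and 4.10 ± 0.359 in mdx (SD, n = 3 each), against 5.06 ± 0.1003 in WT (SD, n = 2). The Micu3 to Mcu ratio was 0.260 ± 0.0218 in mdx sln+/-, 0.225 ± 0.0225 in mdx and 0.337 ± 0.0356 in WT, a log2 difference of -0.58 in mdx against WT (exact permutation test, p = 0.2). For both genes neither mdx group overlapped WT, which is to be read against the shares just given. Micu2 and Smdt1 kept closer to Mcu in mdx against WT, with log2 differences of 0.02 and 0.09. In mdx sln+/- against WT these were 0.11 and 0.24, beside -0.27 for Mcur1. Micu2 per Mcu was 5.95 ± 0.145 in mdx sln+/-, 5.59 ± 0.432 in mdx and 5.50 ± 0.158 in WT. Smdt1 per Mcu was 4.27 ± 0.118 in mdx sln+/-, 3.85 ± 0.288 in mdx and 3.64 ± 0.612 in WT. For both genes the mdx and WT libraries overlapped, while every mdx sln+/- library lay above both WT libraries. For Smdt1 every mdx sln+/- library also lay above every mdx library. These separations too are to be read against the shares given above. Over all 15 ratio comparisons the exact p ran between 0.1 and 0.8 and the adjusted p between 0.25 and 0.8.

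**Figure D3:**
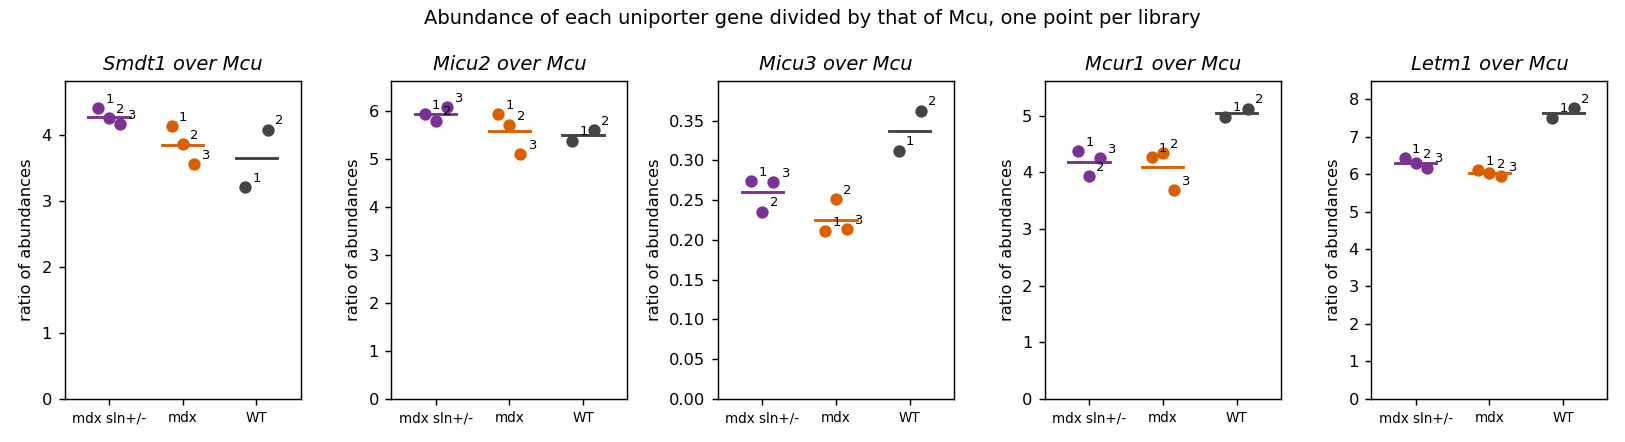
Abundance of each gene divided by that of Mcu in the same library (linear axes from 0), with groups mdx sln+/-, mdx and WT from left to right, numbered points for libraries and bars at group means. Letm1 per Mcu lies between 5.94 and 6.43 in the mdx groups and at 7.51 and 7.77 in WT.

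The gene sums hold several transcripts, which were fitted in a separate limma fit over all 29021 transcripts tested, added after the gene values had been seen. In that fit 8.29% of transcripts were called in mdx against WT, 10.1% in mdx sln+/- against WT and 0% in mdx sln+/- against mdx. Most Smdt1 abundance (86.5%) lay on its protein-coding transcript Smdt1-201, which had 53.9, 55.3 and 54.6 in mdx sln+/- 1, 2 and 3, and 52.1, 50.1 and 50.0 in mdx 1, 2 and 3, against 38.8 and 42.8 in WT 1 and 2. Smdt1-201 rose by 0.41 ± 0.08 in mdx sln+/- against WT (limma, adjusted p = 0.0248), and in mdx against WT the change was 0.31 ± 0.08 (limma, adjusted p = 0.0613). Smdt1-204, annotated as a target of nonsense-mediated decay, had 4.21, 3.93 and 3.16 in mdx sln+/- 1, 2 and 3, and 4.35, 4.07 and 4.38 in mdx 1, 2 and 3, against 2.01 and 2.65 in WT 1 and 2. It rose by 0.67 ± 0.16 in mdx against WT (limma, adjusted p = 0.0459) and its change was 0.52 ± 0.16 in mdx sln+/- against WT (limma, adjusted p = 0.0826). The coding Smdt1-201 and Smdt1-204 share the bases printed for the acidic tail and overlap along the gene. How reads were split between them is therefore uncertain.

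Micu2 was carried almost wholly by the coding Micu2-201 (95.6% of the gene), whose change was 0.27 ± 0.08 in mdx against WT (limma, adjusted p = 0.0877) and 0.28 ± 0.08 in mdx sln+/- against WT (limma, adjusted p = 0.0711), so neither was called. Micu3 was split between Micu3-203 (67.8%) and Micu3-201 (32.2%), both holding the bases of the EF-hand loops printed above. Micu3-203 had 2.87, 2.71 and 2.74 in mdx sln+/- 1, 2 and 3, and 2.07, 2.26 and 2.30 in mdx 1, 2 and 3, against 3.16 and 2.61 in WT 1 and 2. Here the mdx libraries were the lowest and the mdx sln+/- libraries lay within the WT range, with a change of -0.27 ± 0.14 in mdx against WT (limma, adjusted p = 0.250).

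Letm1 also held transcripts that do not encode the full protein. Its coding Letm1-201 made up 80.2% of the gene. The intron-retaining Letm1-204 made up 12.4% of Letm1 in mdx sln+/-, 10.1% in mdx and 7.81% in WT, a share that was not tested. The log2 change of the abundance of Letm1-204 was 0.52 ± 0.19 in mdx sln+/- against WT and was not called (limma, adjusted p = 0.121). Letm1-205, a decay target, had 6.62, 6.997 and 8.14 in mdx sln+/- 1, 2 and 3, and 7.57, 7.19 and 6.18 in mdx 1, 2 and 3, against 9.86 and 9.24 in WT 1 and 2. Both mdx groups lay wholly below WT, as groups did not overlap for 45.2% of all transcripts tested in mdx against WT, 55% in mdx sln+/- against WT and 25.2% in mdx sln+/- against mdx. The change was -0.41 ± 0.14 in mdx against WT (limma, adjusted p = 0.112). No transcript of Mcur1, of which Mcur1-201 made up 97.8%, or of Letm1 was called.

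**Figure D4:**
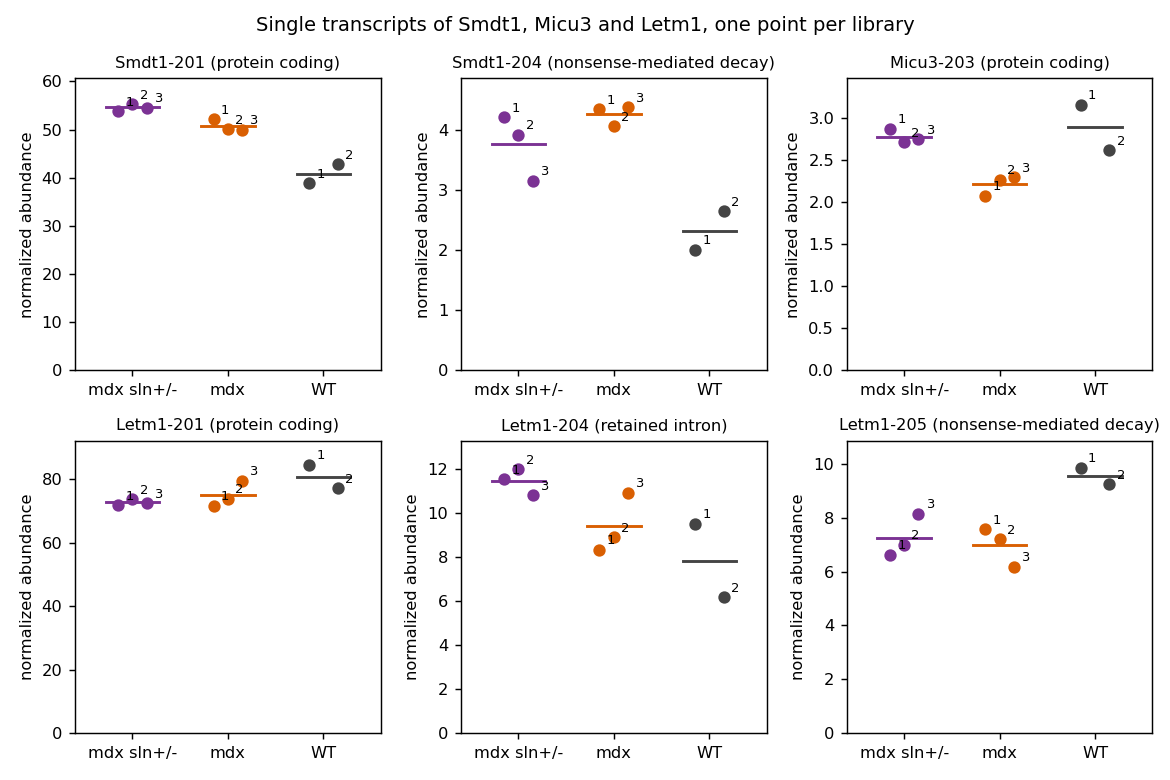
Normalized abundance (linear axes from 0) of 6 single transcripts of Smdt1, Micu3 and Letm1, with groups mdx sln+/-, mdx and WT from left to right, numbered points for libraries and bars at group means. Smdt1-204 lies between 3.16 and 4.38 in the mdx groups and at 2.01 and 2.65 in WT.

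Since Smdt1 and Micu2 moved in the same direction, their promoters are shown, from 250 bases before to 50 bases after the annotated start (RefSeq, GRCm38.p6). RefSeq promoters were found for 5 of the 6 genes, all but Micu3. Capitals mark the only match to a cAMP response element.
Smdt1, chr15:82345796-82346095, plus strand: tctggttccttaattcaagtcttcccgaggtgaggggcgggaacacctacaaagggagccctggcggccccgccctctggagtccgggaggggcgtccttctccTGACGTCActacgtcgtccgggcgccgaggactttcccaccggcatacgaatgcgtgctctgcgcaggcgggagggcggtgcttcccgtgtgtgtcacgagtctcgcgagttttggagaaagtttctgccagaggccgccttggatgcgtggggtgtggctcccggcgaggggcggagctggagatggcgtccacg
Micu2, chr14:57999213-57999512, minus strand: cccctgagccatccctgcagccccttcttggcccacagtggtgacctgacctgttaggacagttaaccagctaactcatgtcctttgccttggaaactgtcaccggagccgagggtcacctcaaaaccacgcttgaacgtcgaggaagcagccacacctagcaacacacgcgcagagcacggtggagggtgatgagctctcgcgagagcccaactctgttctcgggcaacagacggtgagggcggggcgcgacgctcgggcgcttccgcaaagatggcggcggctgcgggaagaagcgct
The motifs searched, on both strands, were the cAMP response element TGACGTCA, the NRF1 core CGCATGCG, the estrogen-related receptor element TCAAGGTCA, the CCAAT box and the GC box GGGCGG, and the matches printed here do not overlap each other. The TGACGTCA of Smdt1 begins 146 bases before the start, and 1.79% of 32851 mouse promoters of the same length hold that motif. Smdt1 also has 4 GC boxes and Micu2 has 1, beside 3 in Letm1, 1 in Mcur1 and 0 in Mcu, and 35.7% of promoters hold a GC box. The CCAAT box (37.4% of promoters) had 0 matches in Smdt1, Micu2 and Mcur1, 2 in Mcu and 1 in Letm1. The NRF1 core (1.87% of promoters) and the receptor element (0.423%) were in none of the 5 windows. The GC content was 65.3% for Smdt1 and 62.0% for Micu2, against a median of 52.7% over all promoters. It was also above that median in the members that were not called, at 61.7% for Mcu, 64.7% for Letm1 and 72.3% for Mcur1. High GC content therefore did not set Smdt1 and Micu2 apart. A match is a string of letters in this window and shows no binding.

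The rest of the uniporter pathway was read from lists of genes by role, beside a median log2 fold change over all tested genes of 0.02 in mdx against WT and 0.05 in mdx sln+/- against WT. In mdx against WT 8.15% of all tested genes were called higher and 6.94% lower. In mdx sln+/- against WT these shares were 9.41% and 6.5%. The counts of called genes below are to be read against these shares. Of 8 genes for other calcium and ion transport of the inner membrane, 2 fell and 0 rose in mdx against WT, with a list median of -0.10. Both are carriers of the uncoupling protein family. Ucp3 averaged 36.3 ± 4.21 in mdx sln+/- (SD, n = 3) and 32.3 ± 6.62 in mdx (SD, n = 3), against 122 ± 20.5 in WT (SD, n = 2). It fell by 1.89 ± 0.19 in mdx against WT (limma, adjusted p = 0.00314) and fell by 1.72 ± 0.19 in mdx sln+/- against WT (limma, adjusted p = 0.00421). Ucp2 fell by 0.86 ± 0.15 in mdx against WT (limma, adjusted p = 0.0130), a call lost without WT 2 (adjusted p = 0.0642), and fell by 0.73 ± 0.15 in mdx sln+/- against WT (adjusted p = 0.0192). The Ucp2 call in mdx sln+/- against WT was lost without WT 1, WT 2, mdx sln+/- 1 or mdx sln+/- 3, with adjusted p between 0.0523 and 0.0869. The sodium and calcium exchanger gene Slc8b1 and Tmem65 were not called, with changes of -0.11 ± 0.20 and -0.30 ± 0.14 in mdx against WT.

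A list of 18 genes held matrix and carrier targets of calcium and enzymes that act on such targets. Of these 18, 3 fell and 0 rose in mdx against WT, with a median of -0.08. Pdp2, a phosphatase that switches pyruvate dehydrogenase on, averaged 20.6 ± 3.32 in mdx sln+/- (SD, n = 3) and 15.6 ± 3.21 in mdx (SD, n = 3), against 51.6 ± 2.68 in WT (SD, n = 2). It fell by 1.68 ± 0.19 in mdx against WT (limma, adjusted p = 0.00446). Pdk4, the kinase that switches the same enzyme off, fell by 1.57 ± 0.41 in mdx against WT (limma, adjusted p = 0.0438). In mdx sln+/- against WT its change was -1.05 ± 0.41 and was not called (limma, adjusted p = 0.121). The Pdk4 call was lost without WT 1, WT 2, mdx 1, mdx sln+/- 1 or mdx sln+/- 3, with adjusted p between 0.0557 and 0.189. Pdp2 also fell in mdx sln+/- against WT, by 1.30 ± 0.19 (limma, adjusted p = 0.00790). Pdp1, the calcium-sensitive phosphatase of that enzyme, chosen after its values were seen, rose by 0.78 ± 0.18 in the same comparison (limma, adjusted p = 0.0305). In mdx against WT the change of Pdp1 was 0.51 ± 0.18 and was not called (limma, adjusted p = 0.102). The Pdp1 call was lost without either WT library, mdx sln+/- 1 or mdx sln+/- 3, with adjusted p between 0.0893 and 0.118.

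Slc25a25, a calcium-regulated carrier of adenine nucleotides, averaged 7.96 ± 0.0615 in mdx sln+/- (SD, n = 3) and 5.56 ± 0.172 in mdx (SD, n = 3), against 8.80 ± 0.370 in WT (SD, n = 2). It fell by 0.58 ± 0.09 in mdx against WT (limma, adjusted p = 0.00886). In mdx sln+/- against WT its change was -0.13 ± 0.09 and was not called (limma, adjusted p = 0.327). In mdx sln+/- against mdx its change was 0.45 ± 0.07 (limma, unadjusted p = 3.88e-04, adjusted p = 0.578), which was not called.

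Of 10 genes for assembly and turnover of the uniporter, 1 rose in mdx against WT and 0 were called in mdx sln+/- against WT. The 1 was Prmt1, an arginine methyltransferase, whose change in mdx sln+/- against WT was 0.28 ± 0.12 (limma, adjusted p = 0.137). In mdx against WT Prmt1 rose by 0.46 ± 0.12 (limma, adjusted p = 0.0406). That call held in 8 of 19 alternatives and was lost without either WT library, mdx 1, mdx 3, mdx sln+/- 1 or mdx sln+/- 3 (adjusted p between 0.0510 and 0.177). The genes Afg3l2 and Spg7, whose protease acts on EMRE, and the membrane protease gene Yme1l1 were not called, with changes of 0.18 ± 0.07, 0.09 ± 0.06 and -0.30 ± 0.12. Of 7 permeability transition genes 1 rose: Bak1, a pore-forming protein of the outer membrane, rose by 0.94 ± 0.17 in mdx against WT (limma, adjusted p = 0.0145) and by 0.85 ± 0.17 in mdx sln+/- against WT (limma, adjusted p = 0.0180). Its call against WT was lost without mdx 1 in mdx (adjusted p = 0.0556) and without mdx sln+/- 1 or 3 in mdx sln+/- (adjusted p = 0.0817 and 0.0604). None of 14 genes of the outer membrane and its contact with the reticulum, such as Vdac1 and Mfn2, was called in any of the 3 comparisons.

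Without WT 2 and mdx sln+/- 3, where 154 genes were called in mdx against WT and 66 in mdx sln+/- against WT, the call of Ucp3 in mdx against WT held (-1.70, limma, adjusted p = 0.0443). The other calls named from these lists were lost, although their signs did not turn. In mdx against WT the adjusted p (limma) was 0.0616 for Ucp2, 0.0562 for Pdp2, 0.106 for Slc25a25, 0.0731 for Bak1, 0.225 for Pdk4 and 0.255 for Prmt1. In mdx sln+/- against WT it was 0.0852 for Ucp3, 0.158 for Ucp2, 0.121 for Pdp2, 0.119 for Bak1 and 0.233 for Pdp1. For the import genes Timm23 and Tomm70a, described next, it was 0.296 and 0.215.

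**Figure D5:**
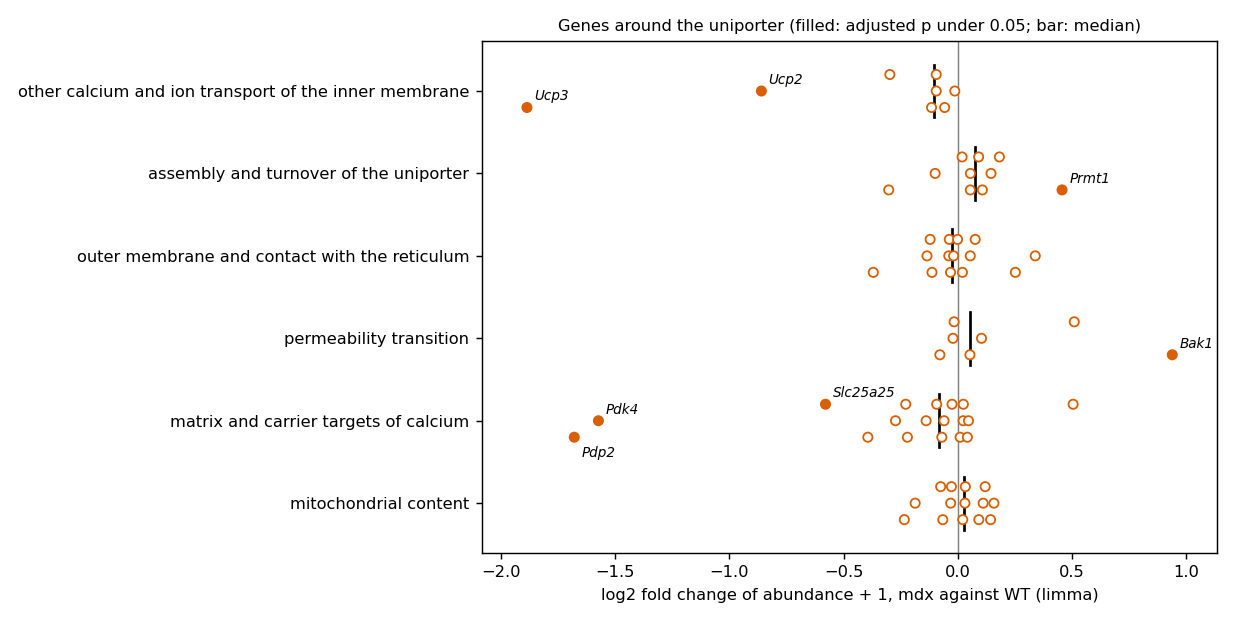
Log2 fold change of abundance + 1 in mdx against WT (limma) for each gene of the 6 lists around the uniporter, with filled points at an adjusted p under 0.05 and a bar at each list's median. The falls of Ucp3 and Pdp2 lie at -1.89 and -1.68.

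Genes that track the amount of mitochondria were measured beside the uniporter. Of 14 such genes, including Cs, Tomm20 and Atp5a1, 0 were called in mdx against WT, with a median of 0.03, and their summed abundance ran between 14115 and 14899 in mdx sln+/-, 12791 and 14210 in mdx, and 13000 and 14100 in WT. In mdx sln+/- against WT, beside shares of 9.41% higher and 6.5% lower over all tested genes, 1 rose and 1 fell. These were the import genes Timm23 (0.33 ± 0.08, limma, adjusted p = 0.0316) and Tomm70a (-0.26 ± 0.07, limma, adjusted p = 0.0411), named after their values were seen. Neither call was stable: that of Timm23 held in 12 of 19 alternatives and that of Tomm70a in 9 of 19. Among these, the fits without mdx 2 and without mdx sln+/- 2 give the same estimate and are not separate checks. With the r1 value columns alone, the change was 0.09 for Timm23 (limma, adjusted p = 0.486) and -0.24 for Tomm70a (limma, adjusted p = 0.0723). Leaving out single libraries gave adjusted p-values up to 0.160 for Timm23 (without mdx sln+/- 1) and 0.173 for Tomm70a (without mdx sln+/- 1), and the Timm23 call was also lost without WT 2, mdx 2, mdx sln+/- 2 or mdx sln+/- 3. The Tomm70a call was lost when any single library other than mdx 1 was left out.

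The ventricle holds several cell types, and in whole tissue a higher level in the same cells and more cells of a type with that gene cannot be told apart. Of all tested genes, 8.15% were called higher in mdx against WT and 9.41% in mdx sln+/- against WT. Counts of called markers are to be read beside these shares. Summed abundances of 11 macrophage markers were 324 to 385 in mdx sln+/- and 316 to 401 in mdx, against 244 to 245 in WT, with 3 of 11 called higher in each comparison with WT. Those of 10 fibroblast markers were 1015 to 1147 in mdx sln+/- and 971 to 1304 in mdx, against 757 to 914 in WT, with 2 of 10 called higher in each. For 9 endothelial markers they were 1056 to 1196 in mdx sln+/- and 1031 to 1203 in mdx, against 894 to 1117 in WT, with 2 of 9 called higher in each. For 8 smooth muscle and pericyte markers they were 636 to 796 in mdx sln+/- and 637 to 838 in mdx, against 584 to 590 in WT, with 1 of 8 called higher in mdx and 0 in mdx sln+/-. The single markers of this list went both ways, so its sum does not stand for all of them. In mdx against WT 5 changes were positive and 3 negative (median 0.15), and in mdx sln+/- against WT 4 and 4 (median -0.14). None of these markers was listed at 0, and 0 of 11 cardiomyocyte markers were called. The part of these cell types in the rises of Smdt1 and Micu2 was not tested.

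For each uniporter gene, the 2 genes whose log2 level was most like it over the 8 libraries were found among 8081 genes with a mean log2 level of at least 3, by Pearson's r as a description. Smdt1 was most like Lemd2 (r = 0.996) and Fam3c (r = 0.988), and Micu2 most like Apbb2 (r = 0.995) and Klhl30 (r = 0.995). Mcu was most like Stau1 (0.984) and Kpna4 (0.977), and Micu3 most like Orc2 (0.992) and Fbxo3 (0.990). Mcur1 was most like Cmc2 (0.973) and Cdip1 (0.963), and Letm1 most like Plscr2 (0.996) and Kcnn1 (0.970). The points share 3 genotypes, so any gene that differs between WT and both mdx groups with little spread will score high with Smdt1 and Micu2.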

How the data were processed

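Members and gene lists were chosen with earlier results of these data known. Alignment used STAR 2.6.1 and mm10, and quantification used Partek, per the submitters' processing notes. Whether reads were counted by strand and the meaning of r1 and r2 are not given in the sources used here. The authors deposited log2 values of 33027 transcripts (14578 genes), in an r1 and an r2 column per library, per the file headers. That they are log2(abundance + 1) was inferred from the values, none of which lies at or under 0. No counts were used, so depth is unknown.

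r1 and r2 (correlation 0.981 to 0.987) were averaged, returned to linear scale, summed per gene and put on log2(value + 1). A gene was tested if 2 or more libraries reached a value of 1 (13783 genes, with 795 left out). A single limma fit of all 8 libraries (limma 3.58.1, R 4.3.3, empirical Bayes with a mean trend) held the group and a term that is 1 in mdx 2 and mdx sln+/- 2. In the deposited values that contrast is at most 5.12e-05 in any transcript, against an SD of 0.127 to 0.199 for other choices of libraries, and the term leaves 4 residual degrees of freedom. P-values were Benjamini-Hochberg adjusted over all genes (threshold 0.05). Ratios to Mcu were tested with exact permutation tests (scipy 1.17.1). The fit was tested on simulated data. Named genes are the 6 members, the called genes of each list in mdx against WT (at most 4), the 2 most alike genes of each member, and Dmd; others were chosen after their values were seen.

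Gene and transcript coordinates came from GENCODE M21 (GRCm38/mm10), which held 32946 of the 33027 transcripts. The alternatives were no filter, scaling by median ratio or upper quartile, a pseudocount of 0.1, r1 or r2 alone, group only, both groups alone, library name style or the replicate number as the term, and leaving out each library. The coding transcript with the most exons in place of the gene sum, and leaving out WT 2 with mdx sln+/- 3, were added after seeing the data. The list of the whole uniporter complex is not reported here.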

Additional observations from a re-analysis of the deposited data

How the results depend on the processing

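The number of genes called in mdx against WT, 2080, was 3798 with the group alone in the model, 154 without WT 2 and mdx sln+/- 3, and 638 to 1811 when 1 library was left out, with 638 without WT 2, 901 without mdx sln+/- 1, 1008 without mdx 1 and 1352 without mdx sln+/- 3. The 2193 genes called in mdx sln+/- against WT became 3996 with the group alone, 3796 with only both groups compared, 66 without WT 2 and mdx sln+/- 3, and 316 to 2402 when 1 library was left out, with 316 without mdx sln+/- 1, 584 without mdx sln+/- 3 and 827 without WT 2. Median-ratio scaling turned the split, to 926 higher and 1149 lower where the main fit had 1297 and 896 (mdx sln+/- against WT), and to 1000 and 1099 where it had 1123 and 957 (mdx against WT). In mdx sln+/- against mdx no gene was called under any alternative run. Members called in mdx against WT (1) were 2 with the group alone, 0 without WT 2 and mdx sln+/- 3 and 0 to 1 when 1 library was left out. Without WT 1 the 1 gene called was Micu2 (0.34, adjusted p = 0.0469). Members called in mdx sln+/- against WT (2) were 1 under median-ratio scaling, upper-quartile scaling, r1 alone and r2 alone, 0 without WT 2 and mdx sln+/- 3 and 0 to 2 when 1 library was left out. Over 20 alternatives the Smdt1 change ran from 0.27 to 0.39 in mdx against WT (called in 13) and from 0.34 to 0.49 in mdx sln+/- against WT (called in 17), and the Micu2 change from 0.18 to 0.34 (called in 2) and from 0.17 to 0.37 (called in 6). The labels share replicate numbers, but the numbers were not taken to pair the libraries: the correlation of deviations between same-numbered libraries ran from -0.996 (mdx 2 and mdx sln+/- 2, where the removed contrast forces it) to 0.180 (WT 2 and mdx 2), with 0.148 between WT 1 and mdx 1 and -0.311 between mdx 3 and mdx sln+/- 3. With the replicate number as a block, 2397 genes were called in mdx against WT, 2363 in mdx sln+/- against WT and 0 in mdx sln+/- against mdx, with 1 member called in mdx against WT and 1 in mdx sln+/- against WT. Signs turned only for changes that were not called: Letm1 in mdx sln+/- against mdx (0.00480 without mdx sln+/- 1, and -0.0382 to 0.0405 when 1 library was left out, with 0.0405 without mdx 3), Mcur1 in mdx against WT (-0.145 to 0.0289 when 1 library was left out, with 0.0289 without WT 1) and in mdx sln+/- against mdx (-0.0639 to 0.0252, with 0.0252 without mdx 2 and without mdx sln+/- 2), Micu2 in mdx sln+/- against mdx (-0.0131 with median-ratio scaling, -0.00371 with upper-quartile scaling, -0.00928 without mdx sln+/- 3, with or without WT 2, and up to 0.0510 without mdx sln+/- 1) and Micu3 in mdx sln+/- against mdx (-0.146 for its coding transcript with the most exons). Of 821 alternatives for single genes and ratios, 728 left direction and call as they were or moved the ratio by less than the spread, 81 lost a call, 2 gained a call and 10 turned the sign. The cause of these shifts was not tested. Every alternative run for a ratio is among those left as they were, which says little about how stable the ratios are. Scaling cancels in a ratio, and leaving out 1 library moves a group mean by less than the spread of that group. The rule for ratios could therefore not fail in those alternatives. Fits without 1 WT library assume that the lone WT library varies like the other groups. Fits without mdx 2 and without mdx sln+/- 2 are not separate checks. In each the term of the model belongs to the other of these libraries alone, so both drop out of the group estimates. The sign turn of Mcur1 in these fits is thus the same result counted more than once. With 2 WT libraries the precision of every comparison with WT is limited by them.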
